A study of Mus musculus with 6 samples.

Results

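The miR-379 to miR-410 cluster is a run of miRNA genes in the imprinted Dlk1-Dio3 domain of mouse chromosome 12. Its members here were 46 named mature miRNAs, the products of 33 hairpins, and all 46 occurred among the 1011 rows of the deposited small RNA table. They were 17 products of 5p arms and 29 of 3p arms. Small RNA had been sequenced from primary pancreatic islets, the hormone-secreting cell clusters of the pancreas, of mice in feeding groups named HFD and NCD. Each group had 3 libraries. The labels used here state no strain, age, sex or feeding time, nor whether a library is 1 animal or a pool, so p-values measure the spread between these libraries, which may be technical.

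In imprinted domains 1 parental copy is silenced. In the Dlk1-Dio3 domain the maternal copy makes the long non-coding RNAs Meg3, Rian and Mirg and the miRNAs between and within them, while the paternal copy makes the proteins Dlk1, Rtl1 and Dio3. The cluster occurs in placental mammals and is best known from brain, where it is induced by neuronal activity. In human islets the maternally expressed RNAs of this locus are enriched in beta cells and have been reported lower in donors with type 2 diabetes.

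By RefSeq positions on GRCm38 the hairpins lay on the plus strand of chromosome 12 between 109709060 and 109743795, a span of 34.7 kb. GENCODE places Mirg at 109729764 to 109749460. Of the 33 hairpins, 12 lay within Mirg, 8 of them overlapping an annotated exon, and the others lay upstream of it. Names of 42 members matched RefSeq entries, and each of these 42 sequences was the same in the deposited table. Products whose levels carry the results are printed first, 5′ to 3′, with the seed (bases 2 to 8, which pair with target mRNAs) in capitals.
mmu-miR-541-5p: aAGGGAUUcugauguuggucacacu
mmu-miR-379-5p: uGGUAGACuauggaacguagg
mmu-miR-411-5p: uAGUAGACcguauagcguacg
mmu-miR-409-3p: gAAUGUUGcucggugaaccccu
mmu-miR-409-5p: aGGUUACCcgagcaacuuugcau
mmu-miR-382-5p: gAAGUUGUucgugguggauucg
mmu-miR-543-3p: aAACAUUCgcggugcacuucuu
mmu-miR-381-3p: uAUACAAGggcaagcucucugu
mmu-miR-300-3p: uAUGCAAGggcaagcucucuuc

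Although their hairpins stand in 1 array, the 46 members held 44 distinct seeds. The same seed was found in miR-379-3p and miR-411-3p, from neighbouring hairpins, and in miR-381-3p and miR-539-3p. Other members were near copies that differed in the seed as well as outside it. Such were miR-300-3p and miR-381-3p, whose letters differed at 3 places when aligned from the first base, and miR-376a-3p and miR-376b-3p, also at 3. Closest were miR-379-3p and miR-411-3p, which differed at 2 places. Reads of such pairs may have been exchanged in counting.
miR-379-3p: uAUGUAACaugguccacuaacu
miR-411-3p: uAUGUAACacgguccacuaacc
miR-539-3p: cAUACAAGgauaauuucuuuuu

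A core that follows the seed recurred among the 3p arms. The letters CANGGU (N is any base), looked for on the mature strand after the sequences had been read, occurred in 8 of the 29 members from 3p arms, or 27.6%, against 7 of 424 other mouse 3p rows, or 1.65%. None of the 17 members from 5p arms held it, and 11 of 416 other 5p rows did, or 2.64%. In each of the 8 it filled bases 8 to 13, its first base being the last of the seed. It stands in capitals in the sequences that follow.
miR-379-3p: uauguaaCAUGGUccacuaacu
miR-411-3p: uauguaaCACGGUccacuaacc
miR-323-3p: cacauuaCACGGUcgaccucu
miR-1197-3p: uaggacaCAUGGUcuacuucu
miR-495-3p: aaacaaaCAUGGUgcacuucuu
miR-487b-3p: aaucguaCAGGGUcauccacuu
miR-154-3p: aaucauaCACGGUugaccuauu
miR-369-3p: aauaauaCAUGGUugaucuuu

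Library totals ran from 7166712 to 11172255 reads, and 3 reads, the limit set by a count of 0, corresponded to 0.213 to 0.445 CPM. CPM here are counts scaled to a common library size by way of TMM factors, which correct for a few abundant miRNAs taking up reads. This limit and the intervals given here cover counting error only. NCD 3 stood apart from the other libraries, with a TMM factor of 1.73 where the others had 0.84 to 0.995. The 4 islet endocrine markers, led by miR-375-3p, were present in every library, with a summed level of 445649 to 544941 CPM in HFD and 260082 to 598667 CPM in NCD islets. The 3 acinar markers, from the digestive part of the pancreas, summed to 20.2 to 204 CPM in HFD and 109 to 415 CPM in NCD islets. The 4 neural markers, which matter here because the cluster is abundant in brain, summed to 246 to 861 CPM in HFD and 451 to 635 CPM in NCD islets. On TMM-scaled CPM NCD 3 was lowest in the endocrine and highest in the acinar sum. NCD 1 was highest in 3 other sums, with 885 CPM of liver and muscle markers where the other libraries had 48.3 to 131 CPM, 28.5 CPM of leukocyte markers where they had 3.73 to 9.13 CPM, and 726 CPM of the endothelial marker where they had 295 to 558 CPM. HFD 2 was highest in the neural sum and in the stromal sum, with 4976 CPM of stromal markers where the other libraries had 1329 to 2978 CPM. It was also highest in the erythroid sum, with 155 CPM beside 143 CPM in NCD 1. The TMM factor of 1.73 lowers every sum of NCD 3. Its place among the libraries in the endocrine, neural and erythroid sums therefore depends on that scaling. These sums are not given on raw CPM, which are counts scaled to library totals only. The part of cell makeup in the values that follow was not tested. In such bulk samples fewer cells of a type and less RNA per cell cannot be told apart.

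As a share of raw reads the cluster as a whole was similar in all libraries, though its parts were not. It took 1.33%, 1.15% and 1.31% of all reads of HFD 1, HFD 2 and HFD 3, and 1.19%, 1.28% and 1.33% of those of NCD 1, NCD 2 and NCD 3. The 95% Wilson intervals were narrow, for example 1.14% to 1.15% in HFD 2 and 1.32% to 1.34% in NCD 3. The diets overlapped, with mean shares of 1.26% ± 0.101 (SD, n = 3) for HFD and 1.27% ± 0.0707 (SD, n = 3) for NCD. Without miR-541-5p and miR-379-5p, the most abundant members, the share was 0.586% in NCD 3 and 0.354% to 0.438% in the other libraries.

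On TMM-scaled totals the libraries were less alike. The summed level was 15861, 13657 and 13152 CPM in HFD replicates 1 to 3, and 12642, 14650 and 7671 CPM in NCD replicates 1 to 3. NCD 3 was thus lowest, and the other 5 libraries overlapped between diets. The difference of HFD from NCD was 0.33 on the log2 scale, which was 0.06 without NCD 3, 0.42 without NCD 1, 0.53 without NCD 2 and -0.0048 as a share of raw reads.

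**Figure D1:**
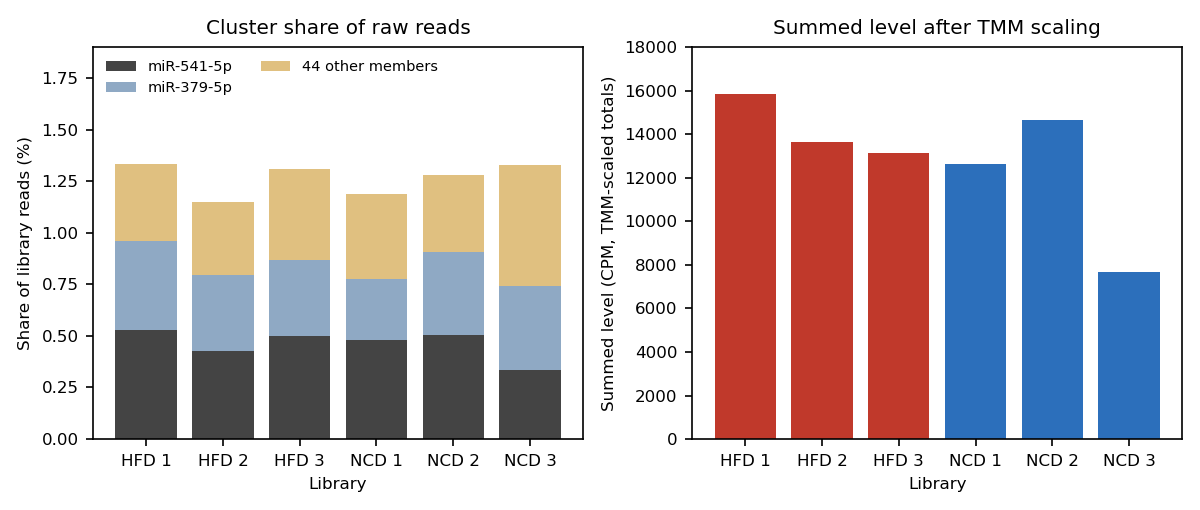
Left, percent of raw library reads taken by miR-541-5p, miR-379-5p and the 44 other members in each library; right, the summed level in CPM on TMM-scaled totals. The share stays between 1.15% and 1.33% in all 6 libraries, while the scaled sum of NCD 3 is the lowest at 7671 CPM.

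Most of these reads came from a pair of 5p products, 1 from the first hairpin of the array and 1 from near its other end. mmu-miR-541-5p, from within Mirg, was the most abundant member and stood at rank 17 of all rows by mean level. Its level was 6277, 5096 and 5002 CPM in HFD replicates 1 to 3, and 5080.5, 5795 and 1931 CPM in NCD replicates 1 to 3, so that NCD 3 was low and the other libraries overlapped. mmu-miR-379-5p, the first product of the cluster and an miRNA linked to glucocorticoid control of lipid export in liver, stood at rank 19. It had 5161, 4351 and 3747 CPM in the HFD and 3191, 4607 and 2353 CPM in the NCD replicates, again with overlap and with NCD 3 lowest. On raw CPM miR-541-5p stayed lowest in NCD 3, at 3344 CPM. miR-379-5p did not, with 4075 CPM in NCD 3 and its lowest value, 3002 CPM, in NCD 1. The pair made up 66.5% to 72.1% of the cluster's reads in HFD libraries, 65.4% and 71.0% in NCD 1 and NCD 2, and 55.9% in NCD 3.

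Next in level came mmu-miR-409-3p, mmu-miR-411-5p and mmu-miR-382-5p, with means over all libraries of 900 CPM, 838 CPM and 612 CPM. miR-381-3p (290.0 CPM), miR-485-5p (269 CPM), miR-369-5p (189 CPM), miR-134-5p (161 CPM), miR-382-3p (149 CPM) and miR-543-3p (112 CPM) were the other members above 100 CPM. miR-134-5p is known for restraining the kinase Limk1 in dendritic spines, and miR-485-5p for its action at synapses. These 11 members held 692394 of the cluster's 731295 reads.

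Neighbouring hairpins differed widely in level. The member hairpins on either side of mir-541 gave miR-377-3p, with 1.80 CPM, and miR-409-3p, with 900 CPM. miR-380-3p was the lowest member that passed the filter on low counts, with a mean of 1.10 CPM, so that the tested members spanned a range from that value to 4863 CPM. miR-410-3p, whose hairpin closes the array and which has been tied to insulin secretion in a beta-cell line, was at 36.2 CPM. Small RNA libraries capture some ends better than others, so levels of different members are less comparable than levels of 1 member between libraries.

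Of the 46 members, 39 passed the filter, which used only the counts and the diet labels. The other 7 were miR-323-5p, miR-758-3p, miR-376a-3p, miR-539-3p, miR-544-3p, miR-154-3p and miR-1197-3p, with 1 to 82 reads each over all libraries. No fold is given for these members.

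**Figure D2:**
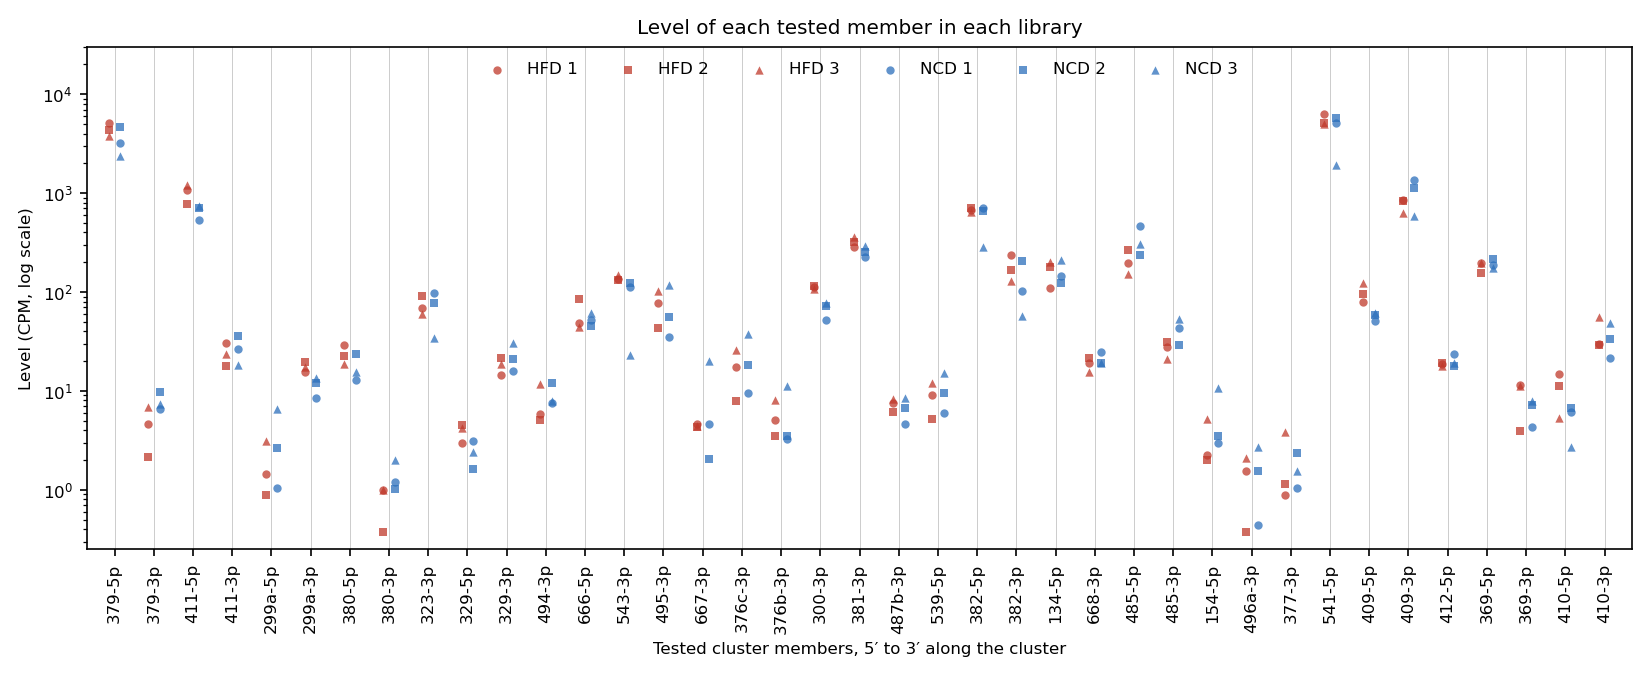
Level in CPM (log scale) of each of the 39 tested members in each library, in their order along the cluster; red symbols are HFD and blue symbols NCD libraries, with 1 symbol shape per replicate number. High and low members lie side by side along the array, from a mean of 1.10 CPM for miR-380-3p to 4863 CPM for miR-541-5p.

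The comparison of the diets asked which members differed between HFD and NCD islets. With edgeR's quasi-likelihood test over all 406 tested miRNAs, 0 of the 39 tested members passed an adjusted p of 0.05, where 0.246% of all tested miRNAs did, and 2 members had an unadjusted p under 0.05, where 10.1% did. DESeq2 called 0 members as well, where 0.743% of all miRNAs with an adjusted p passed, and so did limma-voom. The log2 fold change was positive for 21 members and negative for 18, with a median of 0.08 beside 0.015 over all tested miRNAs, of which 51.5% were positive. With library totals only, 13 members were positive and the median was -0.43, while the median over all miRNAs moved to -0.37. With that scaling 108 of all 406 tested miRNAs were positive. The members' median was also negative with TMM scaling when rows with low counts were kept (-0.15), without HFD 3 (-0.15) and without NCD 1 (-0.12). Smaller negative medians came with RLE factors, another scaling (-0.020), with DESeq2 (-0.029), among miRNAs averaging 100 counts or more (-0.044) and without HFD 2 (-0.0076). The sign of the median thus depended on the setting.

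Levels of 5 members were higher in all HFD than in all NCD libraries, where 10.3% of all tested miRNAs were, and those of 1 member, miR-380-3p, were lower, where 4.93% were. Neither count of members stands far from these shares of all miRNAs. The 5 were miR-409-5p, miR-300-3p, miR-543-3p, miR-411-5p and miR-299a-3p. miR-299a-3p had 15.5, 19.6 and 17.3 CPM in the HFD replicates and 8.46, 11.9 and 13.4 CPM in the NCD replicates, with a log2 fold change of 0.60 ± 0.38 (SE; edgeR adjusted p = 0.573). miR-380-3p rested on 3 to 28 reads per library. On raw CPM the 1 member with HFD above NCD was miR-543-3p (2.46% of all tested), and the 1 below was miR-409-3p (9.11%).

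miR-409-5p had the largest positive value among members with a mean of at least 10 CPM, though it did not pass. Its level was 79.6, 96.1 and 122 CPM in HFD replicates 1 to 3, and 51.3, 58.1 and 61.0 CPM in NCD replicates 1 to 3. All HFD libraries were high and all NCD libraries low. The log2 fold change was 0.80 ± 0.32 (SE), with an unadjusted p of 0.025 and an adjusted p of 0.48 (edgeR), and the adjusted p ran from 0.366 to 0.825 over the alternatives. On raw CPM the diets overlapped, since NCD 3 then had 106 CPM against 67.0 CPM in HFD 1.

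miR-300-3p, the near copy of miR-381-3p, had 112, 114 and 107 CPM in the HFD replicates and 52.7, 72.1 and 77.8 CPM in the NCD replicates, so the diets were apart. The log2 fold change was 0.72 ± 0.31 (SE; unadjusted p = 0.037, edgeR adjusted p = 0.48). miR-381-3p itself had a log2 fold change of 0.33 ± 0.29 with overlapping diets, which became -0.11 with library totals only. On raw CPM NCD 3 had the highest miR-300-3p level, at 135 CPM against 94.6 to 107 CPM in HFD libraries.

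miR-411-5p had 1069, 781 and 1201 CPM in the HFD replicates and 538, 702 and 737 CPM in the NCD replicates. The lowest HFD library lay just above the highest NCD library, and the log2 fold change was 0.63 ± 0.30 (SE; edgeR adjusted p = 0.505). On raw CPM NCD 3 was the highest library for this miRNA too, at 1277 CPM.

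miR-543-3p kept its order on both scales but rested on NCD 3 in size. Its level was 135, 132 and 148 CPM in the HFD replicates and 113, 122 and 23.0 CPM in the NCD replicates. The log2 fold change of 0.70 ± 0.48 (SE; edgeR adjusted p = 0.586) was 0.22 without NCD 3 and 1.05 without NCD 2.

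On the lower side both arms of mir-485 had negative values. miR-485-5p had 196, 263 and 151 CPM in the HFD and 461, 239 and 305 CPM in the NCD replicates, with overlap between HFD 2 and NCD 2. Its log2 fold change was -0.72 ± 0.34 (SE; edgeR adjusted p = 0.505), and that of miR-485-3p was -0.65 ± 0.36 (edgeR adjusted p = 0.562). miR-409-3p had 844, 837 and 634 CPM in the HFD and 1362, 1137 and 583 CPM in the NCD replicates, so NCD 3 was low where NCD 1 and NCD 2 were high. Its log2 fold change was -0.41 ± 0.34 (edgeR adjusted p = 0.629), and ran from -0.72 without NCD 3 to -0.21 without NCD 1. miR-376c-3p, with 17.3, 7.95 and 25.7 CPM in HFD and 9.49, 18.2 and 37.8 CPM in NCD islets, had -0.38 ± 0.52 (edgeR adjusted p = 0.809), which became 0.29 without NCD 3.

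For other members among the most abundant, the log2 fold changes were 0.35 ± 0.38 (SE) for miR-541-5p and 0.39 ± 0.32 for miR-379-5p. They were 0.31 ± 0.35 for miR-382-5p, 0.53 ± 0.43 for miR-382-3p, -0.068 ± 0.29 for miR-369-5p and 0.029 ± 0.34 for miR-134-5p (edgeR adjusted p of 0.629 to 0.976 for these 6). Without NCD 3 the values were -0.0083 for miR-541-5p, 0.17 for miR-379-5p, -0.027 for miR-382-5p, 0.18 for miR-382-3p, -0.15 for miR-369-5p and 0.26 for miR-134-5p. That of miR-382-3p was 1.16 without NCD 2.

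**Figure D3:**
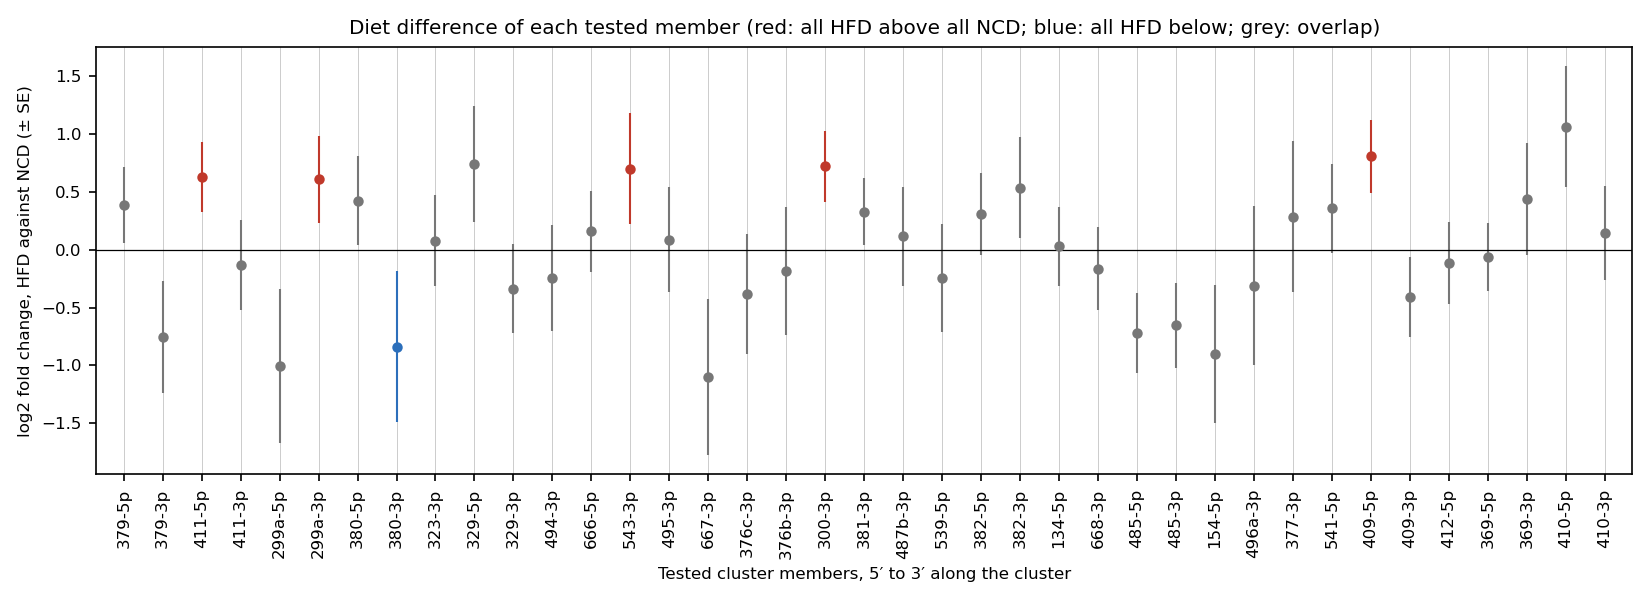
Log2 fold change of HFD against NCD (point) with its standard error (bar) from edgeR for the 39 tested members, in their order along the cluster. The values scatter on both sides of 0, with 21 positive and 18 negative; the 5 red points mark members whose HFD libraries all lay above the NCD libraries and the blue point the 1 member with all below.

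The members were then compared within each library, to see whether products of 1 region vary together. For each tested member the deviation of log2(CPM + 0.5) from its own 6-library mean was taken. The number of members above their mean was 21, 18 and 24 of 39 in HFD replicates 1, 2 and 3, and 14, 19 and 19 in NCD replicates 1, 2 and 3. The most uneven library was NCD 1, with 35.9% of members above their mean beside 46.6% of all tested miRNAs. The median deviation was -0.24 there and 0.28 in HFD 3, while over all tested miRNAs these libraries had -0.066 and 0.064. The medians of the other 4 libraries lay between -0.040 and 0.025.

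Members of different hairpins lay on the same side of their means in 50.0% of pairs and libraries, as did a member and any other tested miRNA in 50.2%. The standard deviation over libraries had a median of 0.48 for the members and was 0.50 after the cluster's median deviation in each library had been subtracted. It was smaller after this step for 22 of the 39 members. For the 367 other tested miRNAs the same step gave 0.53 and 0.54, and 157 had a smaller value after it. Members share libraries and scaling, so these are descriptions without a test.

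NCD 3 held the widest split. In it 5 members were more than 1 log2 unit above their mean and 5 more than 1 unit below, together 25.6% of the tested members beside 16.3% of all tested miRNAs. The high ones, of which miR-667-3p, miR-154-5p and miR-376b-3p are named after their values were seen, were miR-667-3p (1.87), miR-299a-5p (1.43), miR-154-5p (1.38), miR-376c-3p (1.13) and miR-376b-3p (1.05). The low ones were miR-543-3p (-2.06), miR-541-5p (-1.24), miR-382-3p (-1.24), miR-410-5p (-1.20) and miR-382-5p (-1.05). Both arms of mir-382 were thus low on TMM-scaled CPM, whereas in mir-299a and mir-410 1 arm stood out. On raw CPM miR-382-3p had 98.8 CPM in NCD 3, above 95.7 CPM in NCD 1. miR-382-5p and the other low ones stayed lowest in NCD 3 on that scale. With library totals only, 33 of the 39 members were above their mean in NCD 3, in place of 19. The balance of both sides thus depended on the scaling.

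At the other extreme, miR-412-5p, likewise named after its values were seen, varied least over the libraries, from 17.8 to 23.4 CPM, followed by miR-369-5p, from 157 to 216 CPM. This order held on TMM-scaled CPM. On raw CPM miR-412-5p ran from 15.7 to 33.2 and miR-369-5p from 132 to 302, while miR-382-5p ran from 489.6 to 662 and so varied by a smaller ratio than either. miR-369-5p comes from the same hairpin as miR-369-3p, known for its action on the Tnf message in resting cells, which ran from 3.91 to 11.5 CPM. The 3 miRNAs outside the cluster whose pattern lay nearest to the median pattern of the members were miR-24-1-5p, miR-3074-1-3p and miR-24-3p. The sequences of the first pair are reverse complements over most of their length and their counts were nearly equal, so they may hold the same reads. Their Euclidean distances over the 6 libraries were 0.27, 0.29 and 0.29 log2 units, where the median over 214 miRNAs with at least 10 CPM was 1.06. The members' own median distance from that pattern was 1.12. The median pattern was itself nearly flat, between -0.24 in NCD 1 and 0.28 in HFD 3. A miRNA that varied little over the libraries therefore also lies near it, and a small distance need not mean a shared pattern.

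**Figure D4:**
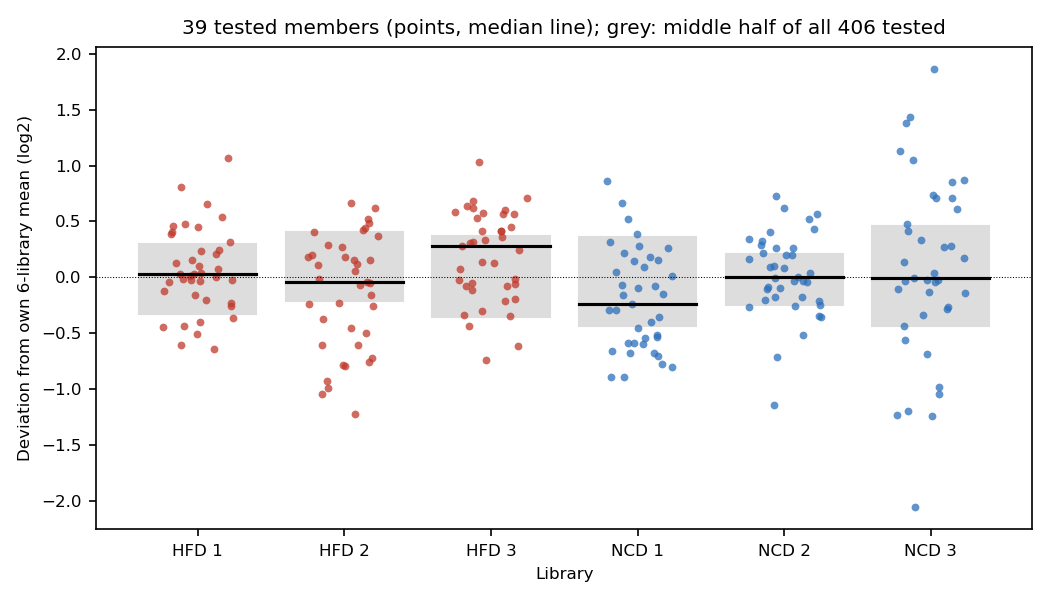
Deviation of each of the 39 tested members from its own 6-library mean of log2(CPM + 0.5), per library; black lines are the members' medians and grey boxes span the lower to upper quartile of all 406 tested miRNAs. Members spread to both sides in each library, from -2.06 to 1.87 in NCD 3.

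Arm choice, the balance of the strands that a hairpin leaves behind, was the last comparison. It is a ratio within 1 library and needs no scaling. Each arm was compared as reads of the 5p arm in percent of both arms. Of the 33 hairpins, 13 had both arms among the members and 12 of these had at least 20 reads in every library. The 5p arm was the major one in mir-379, mir-411, mir-380, mir-539, mir-382, mir-485 and mir-369, and the 3p arm in mir-299a, mir-323, mir-329, mir-409 and mir-410. None of the 12 changed its major arm in any library. Hairpins with an arm outside the members are not covered by this, and mir-667 and mir-377 among them did change in NCD 3.

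The most one-sided by pooled reads was mir-379, with 99.91%, 99.95% and 99.82% 5p reads in HFD and 99.80%, 99.79% and 99.69% in NCD replicates 1 to 3. The least one-sided was mir-382, with 74.1%, 81.1% and 83.4% in HFD and 87.4%, 76.0% and 83.2% in NCD replicates. Its libraries differed far beyond counting error, since the 95% Wilson intervals were 73.2% to 75.1% in HFD 1 and 86.4% to 88.2% in NCD 1. The diets overlapped, and the 5p to 3p balance differed by -0.27 on the log2 scale (exact permutation p = 0.5). That difference was -0.0042 without NCD 1, -0.040 without HFD 1, -0.44 without HFD 3 and -0.57 without NCD 2.

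None of the 12 hairpins passed when log2 5p to 3p ratios, with 0.5 reads added per arm, were compared by exact permutation (two-sided). The smallest adjusted p was 0.4, and 3 against 3 libraries cannot give a p below 0.1. The diets were apart for 2 of the 12 hairpins, mir-379 and mir-329, both at an exact permutation p of 0.1. Hairpins outside the cluster were not compared in this way, so this count has no background and is not read as a result. The mean log2 ratio of mir-379 was 10.04 ± 0.93 (SD, n = 3) for HFD and 8.71 ± 0.33 (SD, n = 3) for NCD, with an exact permutation p of 0.1. The difference of 1.34 was 0.89 without HFD 2. Its 3p product rested on 17 to 75 reads in HFD and 44 to 103 reads in NCD libraries. It is also the near copy of miR-411-3p, so exchanged reads could alter this ratio.

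In mir-329 the 5p share was 17.3%, 17.6% and 18.3% in HFD and 16.3%, 7.21% and 7.34% in NCD replicates 1 to 3. NCD 1 stood next to the HFD libraries, and its interval of 10.9% to 23.6% covered their values. The log2 ratio differed by 1.01 (exact permutation p = 0.1, adjusted p = 0.4).

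In mir-409 the 5p product had a positive and the 3p product a negative fold change, neither past the test. The 5p share was 8.62%, 10.3% and 16.1% in HFD and 3.63%, 4.86% and 9.47% in NCD replicates 1 to 3. Only NCD 3 overlapped with HFD, lying above HFD 1. The mean log2 ratio was -2.97 ± 0.53 (SD, n = 3) for HFD and -4.09 ± 0.76 (SD, n = 3) for NCD, a difference of 1.12 (exact permutation p = 0.2, adjusted p = 0.4). With 7390 to 11664 reads per library, counting error was small, as in the 95% Wilson interval of 8.03% to 9.24% for HFD 1.

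mir-410 varied widely between libraries. Its 5p share was 33.4%, 27.5% and 8.70% in HFD and 22.2%, 16.7% and 5.31% in NCD replicates, so replicate 3 was the lowest library in both diets. The difference in log2 ratio was 0.83 (exact permutation p = 0.5), and ran from 0.13 without NCD 3 to 1.56 without HFD 3. In mir-299a the 5p share ran from 4.32% to 15.2% in HFD and from 10.9% to 33.0% in NCD islets, a difference of -1.37 (exact permutation p = 0.2), which was -0.87 without NCD 3 and -0.89 without HFD 2. The arms of mir-299a are reverse complements of each other and of the products of mir-299b on the other strand over 18 bases, so strand-blind counting could mix them.

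Both arms of 10 hairpins were tested between diets. In 7 of the 10 the 5p and 3p arms had fold changes of opposite sign, the exceptions being mir-382, mir-485 and mir-410. The arms of 1 hairpin lay on the same side of their means in 41.7% of 60 hairpin and library combinations, beside 50.0% for members of different hairpins. Neither count was made for arm pairs outside the cluster, so whether opposed arms are particular to it was not tested.

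**Figure D5:**
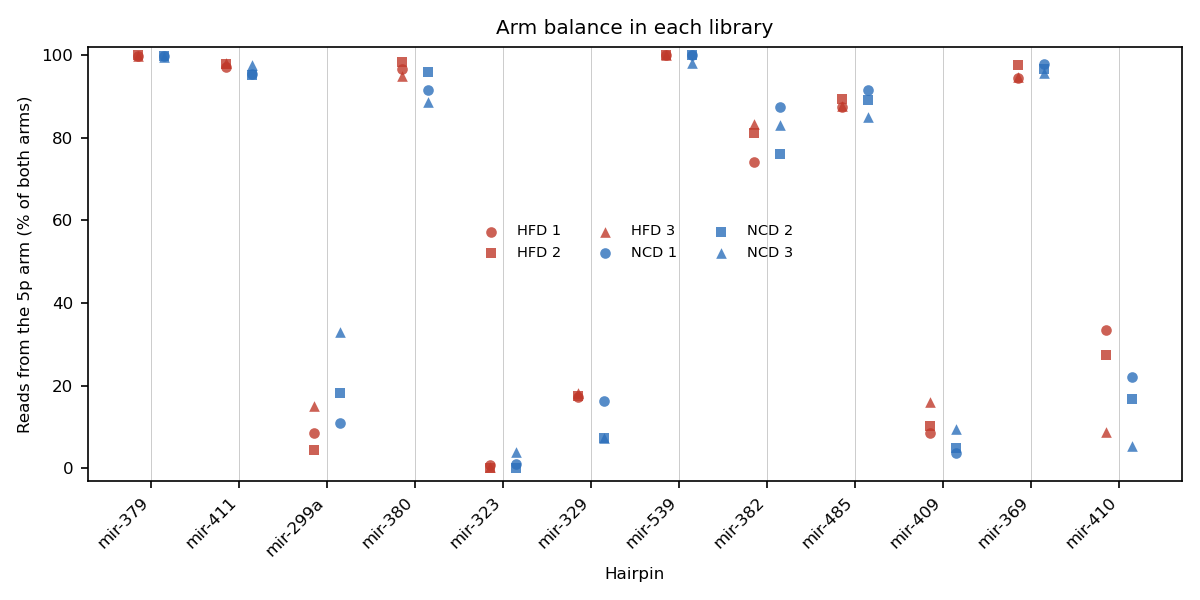
Reads of the 5p arm in percent of the reads of both arms for 12 hairpins, 1 symbol per library (red HFD, blue NCD). Each hairpin keeps its major arm in all 6 libraries; mir-299a and mir-410 show the widest spread in percent between libraries.

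Other miRNAs of the region were tested in the same fit. Of 24 rows for other products of the same cluster, 9 were tested and 0 passed (edgeR), with 5 positive and 4 negative fold changes and a median of 0.032. Of 30 rows for other miRNAs of the Dlk1-Dio3 domain, 24 were tested and 0 passed. The fold changes were positive for 19 and negative for 5, where 51.5% of all tested miRNAs were positive. Their median was 0.27, which was -0.15 with library totals only, and 11 were then positive. Among them miR-136-3p and miR-3071-5p had nearly equal counts, with 7474 and 7444 reads over all libraries. These rows may therefore hold the same reads. Of the 24 tested, 4 had an unadjusted edgeR p under 0.05, where 10.1% of all tested miRNAs and 2 of the 39 members did. On TMM-scaled CPM 6 of the 24 had all HFD above all NCD libraries. The same held for 10.3% of all tested miRNAs and 5 of the 39 members. This count was not made on raw CPM for the 24. Whether these lists differ was not tested. Both lists had been drawn up with earlier results of these data known. The most abundant of them was miR-127-3p, which acts on the paternally expressed Rtl1 message, with a mean of 5819 CPM and a log2 fold change of 0.38 ± 0.31 (SE; edgeR adjusted p = 0.629).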

How the data were processed

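Total RNA from islets was made into small RNA libraries with the NEBNext kit, per the labels' protocols. The authors deposited 1 table with raw read counts per mature miRNA and TPM values, per the file headers. The deposited TPM equalled CPM on the column total, with no length term. Neither labels nor headers used here name the aligner, counter or miRNA release. The members and lists were chosen with earlier results of these data known.

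Counts were tested with edgeR 4.0.16 (quasi-likelihood, TMM scaling, filterByExpr with a minimum count of 10) in R 4.3.3, over 406 miRNAs with Benjamini-Hochberg adjustment and a threshold of 0.05. DESeq2 1.42.0 and limma 3.58.1 were alternatives, as were other scalings, filters and libraries left out. The script was tested on simulated data. CPM used TMM-scaled totals, and deviations used log2(CPM + 0.5). Arm ratios had 0.5 reads added per arm, a minimum of 20 reads per library and a two-sided exact permutation test. Sequences came from the deposited table and RefSeq (GRCm38.p6).

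Members were named where they were among the 12 most abundant, among the 4 most positive or 4 most negative fold changes with a mean of at least 10 CPM, in a tested arm pair, or with a shared seed. Members below the filter are given by name. Replicates of 1 diet differed far beyond counting noise, with chi-square per degree of freedom of 447 to 2305, so each counted as 1 sample. Library totals set the precision and ran from 7166712 to 11172255 reads.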

Additional observations from a re-analysis of the deposited data

How the results depend on the processing

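No cluster member passed the threshold under any alternative run, and the lowest adjusted p of a member was 0.229. The arm test could not pass it with so few libraries, so its counts of 0 say nothing about stability. The count of all miRNAs past the threshold was 1, and became 0 with library totals only, 3 with DESeq2 and 8 with no filter. Limma-trend gave 0 at a TPM pseudocount of 1 and 0 at 0.1. It ran from 0 to 4 when a library was left out, with 0 without NCD 1, 4 without NCD 2 and 3 without NCD 3. The members' median log2 fold change of 0.08 became -0.43 with library totals only, -0.15 with no filter, and -0.22 and -0.28 with limma-trend at the larger and smaller pseudocount. That median was -0.020 with RLE factors, -0.029 with DESeq2 and -0.044 among miRNAs averaging 100 counts or more. It ran from -0.15 (without HFD 3) to 0.19 (without NCD 3) when a library was left out, and was -0.12 without NCD 1. The cause was not tested.

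With library totals only, the number of members above their mean became 11 in HFD 1, 10 in HFD 2 and 33 in NCD 3. The same counts over all tested miRNAs are not given on that scaling. With it the median log2 fold change over all tested miRNAs was -0.37, and 108 of 406 were positive. Among the 25 members averaging 100 counts or more, the number above their mean was 13 in HFD 3, 12 in NCD 2 and 9 in NCD 3, where fewer members were counted.

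Some values changed sign. For miR-381-3p the log2 fold change was -0.11 with library totals only and -0.0093 and -0.0091 with limma-trend. For miR-134-5p it was -0.066 with RLE factors, -0.0076 with upper quartile factors, -0.46 with library totals only, -0.038 with no filter, -0.16 among miRNAs averaging 100 counts or more, -0.065 with DESeq2, -0.316 and -0.318 with limma-trend, -0.039 without the most abundant miRNA, and -0.20 to 0.26 when a library was left out. Leaving out a library gave -0.0083 to 0.63 for miR-541-5p, -0.027 to 0.47 for miR-382-5p, -0.16 to 0.0074 for miR-369-5p and -0.83 to 0.29 for miR-376c-3p. For the arm ratio it gave -2.95 to 0.063 for mir-323 and -0.33 to 0.13 for mir-485. With a replicate block, 1 miRNA and 0 members passed and the median was 0.11. Deviations of same-numbered libraries had correlations of 0.18, -0.24 and 0.37 over 406 miRNAs, and same-numbered libraries were not treated as pairs. A setting of the quasi-likelihood fit (legacy) was added after seeing the data and called 0 members.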

Other observations

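Some hairpins of the cluster gave most of their reads from an arm outside the 46 members. Over all libraries the 5p arm gave 77.9% of the reads of mir-376b (1327 reads), 71.2% of mir-667 (1128 reads) and 88.0% of mir-376a (168 reads). These hairpins were picked after their values were seen, and no test was made on their arms. In mir-667 the balance of the arms was different in NCD 3. There the 3p arm was the major one, with 282 reads against 195 of the 5p arm, while the 5p arm led in the other libraries. The 3p arm, miR-667-3p, had 4.68, 4.29 and 4.36 CPM in HFD replicates 1 to 3, and 4.60, 2.05 and 20.1 CPM in NCD replicates 1 to 3. The 5p arm, miR-667-5p, had 10.8, 31.3 and 29.4 CPM in the HFD and 18.7, 14.2 and 13.9 CPM in the NCD replicates. On TMM-scaled CPM NCD 3 was therefore the highest library for the 3p arm and among the lower ones for the 5p arm. The place of NCD 3 for the 5p arm depends on that scaling, and its raw CPM are not given. In edgeR's quasi-likelihood fit neither arm passed, with log2 fold changes of -1.10 ± 0.67 (SE; adjusted p = 0.573) for miR-667-3p, which was 0.48 without NCD 3, and 0.62 ± 0.43 (adjusted p = 0.586) for miR-667-5p.

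Of 29 hairpins with rows for both arms, the steepest balance was in mir-381, with 2 reads of the 5p arm and 17213 of the 3p arm, and the most even in mir-377, with 57 and 111 reads. In NCD 3 alone mir-377 had more 5p than 3p reads, 29 against 22.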
